A study of Mus musculus with 9 samples.

Results

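The genes described here are 9 enzymes and transporters that handle arginine, nitric oxide and itaconate in macrophages: Nos2, Gch1, Slc7a2, Ass1, Asl, Arg1, Arg2, Odc1 and Irg1. They were chosen by symbol, for their place in these pathways, from a table of 15343 genes, and with earlier results of these data known. Their Entrez numbers in the table are 18126 (Nos2), 14528 (Gch1), 11988 (Slc7a2), 11898 (Ass1), 109900 (Asl), 11846 (Arg1), 11847 (Arg2), 18263 (Odc1) and 16365 (Irg1). All 9 were found once, and all 9 passed the filter on low values that kept 13895 genes. The table comes from RNA sequencing of mouse intraperitoneal macrophages, marked WT (wild type) in their titles and of a strain written CF7B1/6. Every library was stimulated with lipopolysaccharide (LPS, a bacterial cell wall component) at 100 ng/ml for 6 h. The LPS group has no pretreatment in its labels, the DHA group received docosahexaenoic acid (DHA, a polyunsaturated omega-3 fat of fish oil) at 100 µM from 1 h before LPS, and the cpdA group received cpdA at 10 µM from 1 h before LPS, a small molecule that the labels name as an agonist of the fatty acid receptor Gpr120. Each group had 3 libraries, written below as LPS 1 to 3, DHA 1 to 3 and cpdA 1 to 3. The labels do not say whether the libraries came from separate animals or cultures, so the p-values measure the spread between these libraries, which may be technical. Unstimulated cells were not analysed here, so every value describes cells that had already met LPS, and no comparison with LPS can separate a compound from the act of pretreating.

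Arginine is the shared starting point of this pathway. In mouse macrophages LPS and interferons switch on Nos2, the inducible nitric oxide synthase, which turns arginine into nitric oxide and citrulline and needs tetrahydrobiopterin (BH4) as a cofactor. The arginases compete for the same arginine and make ornithine, the substrate from which Odc1 starts polyamine synthesis. Irg1, renamed Acod1 in current annotation, acts in the mitochondria, where it makes itaconate from cis-aconitate, and it is among the genes that LPS switches on most strongly in these cells.

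Promoter sequences from RefSeq (GRCm38.p6, which is not the build of the deposited table) were at hand for 4 of the 9 genes: Irg1, Gch1, Odc1 and Ass1. The 250 bases before the start site are shown for Irg1 and Gch1, whose levels ran most closely together over the libraries, and for Odc1, which lay on the other side of LPS from them. They are written 5′ to 3′ on the gene's own strand, and capitals mark a match to a motif like that bound by NF-kB. The Irg1 window is chr14:103046762-103047011 on the plus strand, that of Gch1 is chr14:47189414-47189663 on the minus strand, and that of Odc1 is chr12:17544623-17544872 on the plus strand.
Irg1: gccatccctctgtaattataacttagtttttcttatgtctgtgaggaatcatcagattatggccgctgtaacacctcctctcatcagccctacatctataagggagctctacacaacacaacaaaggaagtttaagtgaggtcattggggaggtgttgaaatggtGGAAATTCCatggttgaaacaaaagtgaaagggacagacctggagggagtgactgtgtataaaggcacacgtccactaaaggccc
Gch1: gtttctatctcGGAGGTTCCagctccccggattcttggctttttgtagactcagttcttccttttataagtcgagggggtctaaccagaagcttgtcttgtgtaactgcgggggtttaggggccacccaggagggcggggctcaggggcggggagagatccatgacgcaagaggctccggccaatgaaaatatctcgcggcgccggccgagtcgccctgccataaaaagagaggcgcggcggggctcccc
Odc1: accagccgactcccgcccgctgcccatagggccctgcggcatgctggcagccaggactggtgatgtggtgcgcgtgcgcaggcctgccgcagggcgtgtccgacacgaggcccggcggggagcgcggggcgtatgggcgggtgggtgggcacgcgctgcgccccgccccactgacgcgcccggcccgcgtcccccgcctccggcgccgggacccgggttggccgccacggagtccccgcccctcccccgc
Searched on both strands, the NF-kB-like motif GGNNNTTCC matched once in the Irg1 window, 85 bases before the start, and once in the Gch1 window, 239 bases before it. It matched in 15.7% of 32851 promoter windows of the same length. The Odc1 window held neither this motif, the AP-1-like TGANTCA (6.75% of windows) nor the E-box CACGTG (6.02%). The Ass1 window held 1 E-box, 36 bases before the start, and no match overlapped another. The motifs were chosen with these sequences in view, and a match is a run of letters, not a measured binding site.

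Libraries within a group differed. Recovered depth ran from 13797079 reads in DHA 1 to 37572822 in cpdA 2. The first principal component (40.5% of the variance) set cpdA 3 apart and the second (28.8%) set LPS 3 apart, while DHA 1 and cpdA 1, of different groups, were the closest pair of all. Macrophage markers (8 of 9 listed were in the table) summed to 332920 in LPS 3 and 386340 in cpdA 3, below the 562620 to 588640 of the other libraries. Most of that gap was the lysozyme gene Lyz2, at 210386 in LPS 3 and 269049 in cpdA 3 and at 447053 to 459826 elsewhere, while Emr1, which encodes F4/80, lay between 29157 and 43351 in all 9. Csf1r of the same list went the other way in cpdA 3, at 21816 against 7572 (LPS 3) to 11559 (cpdA 1) elsewhere. Markers of resident peritoneal macrophages (7 of 7 in the table) summed to 1894 and 2129 in LPS 1 and 2 against 13143 in LPS 3, to 1473 to 1668 in the DHA libraries, and to 1515 and 1730.1 in cpdA 1 and 2 against 12772 in cpdA 3. Nearly all of that excess was the chemokine Cxcl13, and Timd4, another marker of the list, went the other way, at 95.2 in LPS 3 against 194.6 and 203 in LPS 1 and 2 and at 25.4 in cpdA 3 against 107 and 93.5 in cpdA 1 and 2. Against the mean of LPS 1 and 2, the median marker of that list stood at 0.29 (log2) in LPS 3 and at -0.44 in both cpdA 3 and cpdA 1. Neutrophil markers (4 of 10 in the table) summed to 230.2 in LPS 3 and 143 in cpdA 3 and to 393.5 to 508 in the other libraries. Of these, S100a8 was at 71.6 in LPS 3 and 44.4 in cpdA 3 and at 247.8 to 380.6 elsewhere. Camp went the same way, at 3.1 and 8.1 against 28.2 to 47.2. Cxcr2 of the same list did not, at 153.5 in LPS 3, 86.0 in cpdA 3 and 69.7 to 98.9 elsewhere. Markers of mast cells, basophils and eosinophils (4 of 9 in the table) summed to 286.5 in LPS 3 and 323.1 in cpdA 3. In the other libraries they summed to 73.3 to 136. Markers of mesothelium, fibroblasts and endothelium (10 of 10 in the table) summed to 27993 in LPS 3 and to 15590 to 19213 elsewhere, cpdA 3 included. The nuclear RNA Neat1 stood at 46514 in cpdA 3 and at 7382 to 15888 elsewhere. The part of these differences in the results was not tested. In bulk RNA, fewer cells of a type and less RNA per cell cannot be told apart. Since LPS 3 and cpdA 3 decide many values below, the changes of the 9 genes against LPS are also given from a fit to the other 7 libraries (2 LPS, 3 DHA and 2 cpdA), called the 7-library fit, which was added after the data had been seen. Its LPS libraries, LPS 1 and 2, were the closest pair within a group, with a spread of 1.34 times counting noise. The widest such pair, cpdA 1 and 3, had 4.57. The libraries left out were those that stood apart, so the SEs and p-values of that fit understate the spread between libraries.

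Over all 9 libraries, none of the 9 genes passed the test against LPS in either treatment. The test was limma on log2(normalized count + 1), fitted to all 13895 genes with Benjamini-Hochberg adjustment and a threshold of 0.05. With DHA, 0 of 9 were called, where 0.0072% of all genes were (1 gene), and 2 of 9 passed at an unadjusted p of 0.05, against 14.2% of all genes. With cpdA, 0 of 9 were called against 0.0072% of all genes, and 3 of 9 passed unadjusted, against 14.6%. The count tests edgeR and DESeq2 also called 0 of the 9 in both comparisons, against 0.0216% and 2.31% of genes with DHA and 0.0072% and 3.26% with cpdA. In both comparisons with LPS, 3 of 9 genes had groups that did not overlap: Nos2 lower, and Asl and Odc1 higher. Such groups made up 28% of all genes with DHA (13% higher and 15% lower) and 22.9% with cpdA (10.7% higher and 12.2% lower), so 3 of 9 is not far from the share over all genes. The comparisons share the LPS libraries, so a low or high LPS library moves both the same way. In the 7-library fit, DHA gave 1 call upward among the 9 (Odc1; 2.75% of all genes) and 2 downward (Nos2 and Gch1; 4.04% of all genes), where 6.79% of all genes were called in all. For cpdA that fit gave 1 call upward (Odc1; 0.712% of all genes) and 1 downward (Nos2; 0.885%), where 1.6% of all genes were called. With the replicate number as a block in that fit, 3.95% of all genes were called with DHA and 1.23% with cpdA. Under that block the DHA calls among the 9 genes were 0 upward, Odc1 being lost, and 2 downward, and the cpdA calls were 1 upward and 1 downward.

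**Figure D1:**
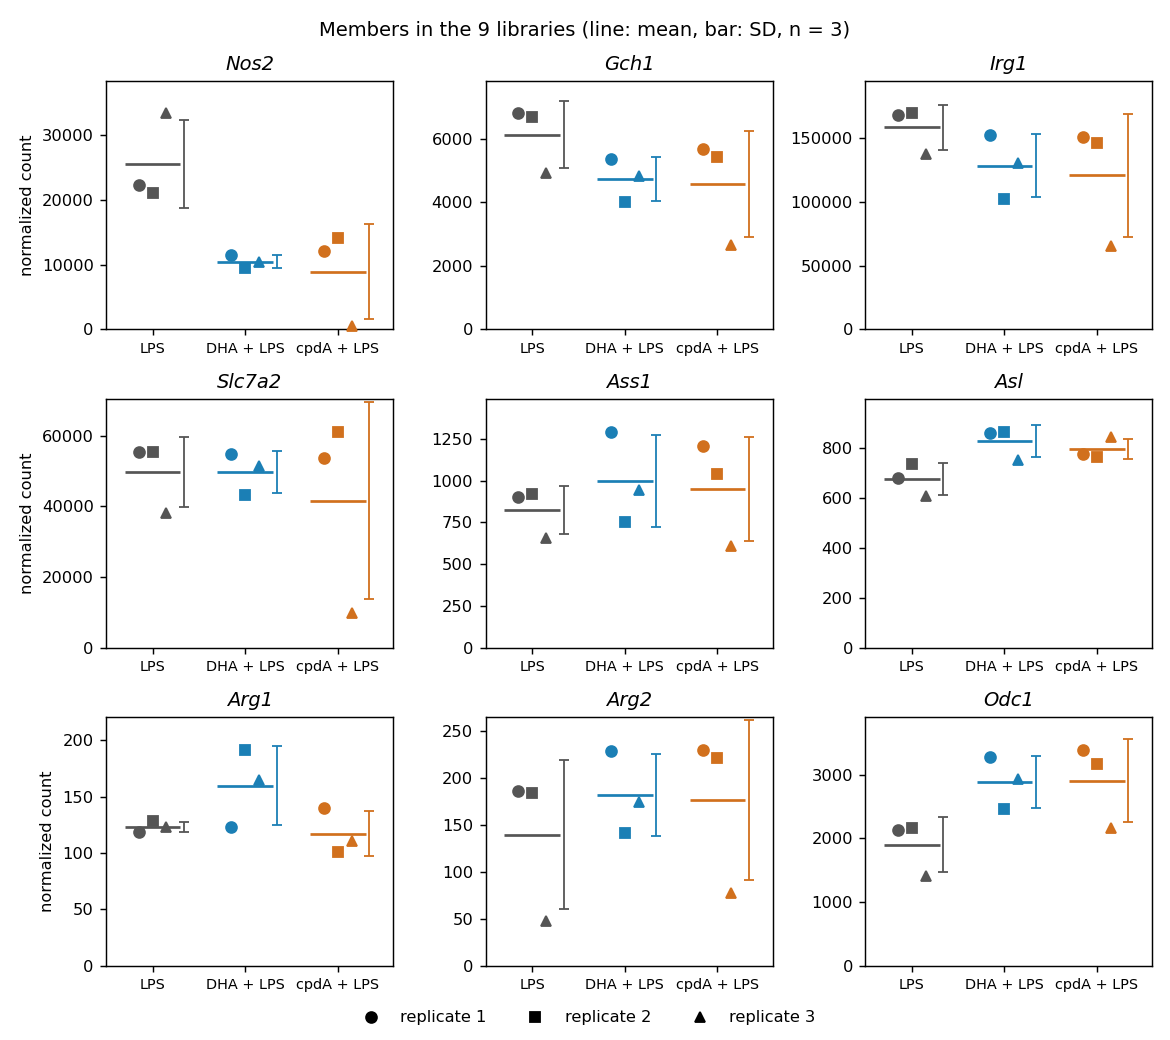
Normalized count (y axis, from 0, a scale per gene) of the 9 genes in the LPS, DHA and cpdA groups, with a point per library shaped by replicate number, a line at the group mean and a bar of 1 SD (n = 3). The 3 DHA points of Nos2 lie between 9528 and 11518, below all LPS points, and cpdA 3 lies at 576, far under its own group.

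Nos2 was the gene of this set with the lowest treated levels relative to LPS. Its normalized count was 22275 in LPS 1, 21073 in LPS 2 and 33340.3 in LPS 3, against 11518, 9528 and 10391 in DHA libraries 1 to 3 and 12140.2, 14046 and 576 in cpdA libraries 1 to 3. All 6 treated libraries lay below all 3 LPS libraries. LPS 3 was the highest library and cpdA 3 the lowest, far from the other members of their groups, while the DHA libraries were close together. The group means were 25563 ± 6762 for LPS, 10479 ± 998 for DHA and 8921 ± 7290 for cpdA (SD, n = 3), so the DHA and cpdA means, neighbours in the order of levels, did not differ beyond their spread.

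With DHA, the log2 change of Nos2 was -1.26 (SE 1.02, 95% confidence interval -3.56 to 1.04, limma adjusted p = 0.588). All libraries share 1 estimate of the spread in this fit, so cpdA 3 widens the interval of a comparison that it does not enter. Without cpdA 3 alone the change stayed at -1.26 and passed the test (limma adjusted p = 0.0195), and over the libraries left out in turn the adjusted p ran from 0.0195 to 0.807. In the 7-library fit Nos2 fell by 1.05 on the log2 scale (SE 0.11, limma adjusted p = 0.000485), to 0.482 times its level with LPS. With cpdA, the change was -2.44 (SE 1.02, interval -4.74 to -0.14, adjusted p = 0.322). The count tests gave -1.52 (edgeR) and -1.52 (DESeq2), and neither called it. Over the 7 libraries it fell by 0.73 (SE 0.12, limma adjusted p = 0.0106, and 0.0345 with the replicate number as a block), to 0.603 times its level with LPS. The size of the cpdA change therefore rests on cpdA 3, and its direction does not. Without DHA 1 and cpdA 1 the changes were -1.33 with DHA and -3.14 with cpdA.

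Gch1 encodes GTP cyclohydrolase 1, the rate-limiting enzyme of BH4 synthesis. Its normalized count was 6798 in LPS 1, 6679 in LPS 2 and 4916 in LPS 3, against 5370.1, 4012 and 4827 in DHA libraries 1 to 3 and 5686, 5418 and 2674 in cpdA libraries 1 to 3. LPS 1 and 2 were the highest of the 9 libraries, and the groups overlapped because LPS 3 lay among the treated ones. With DHA, the change was -0.37 (SE 0.28, limma adjusted p = 0.562). Gch1 fell by 0.52 with DHA in the 7-library fit (SE 0.11, limma adjusted p = 0.0198, and 0.0378 with the replicate block). With cpdA the change was -0.48 (SE 0.28, limma adjusted p = 0.453) over all libraries and -0.28 (SE 0.12, limma adjusted p = 0.403) over the 7, so it was not called in either fit. The mean with LPS, 6131 ± 1054, was the highest, and the DHA and cpdA means, 4736 ± 684 and 4593 ± 1667 (SD, n = 3), did not differ beyond their spread.

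The other BH4 genes gave no call. Of 6 kept genes of BH4 synthesis and recycling (8 listed), none was called with DHA or cpdA in either fit, with medians of -0.01 and 0.02 beside -0.001 and -0.004 for all genes. Over the 7 libraries these medians were 0.04 and 0.02, beside -0.008 and -0.002 for all genes, and the all-gene values apply to each list below. Among them Qdpr, which regenerates BH4, stood at 0.32 with DHA, and Pts, a BH4 synthesis enzyme, at -0.37 with cpdA. The list of other nitric oxide synthases and genes of arginine methylation had 9 kept of 11 listed. Its synthases Nos1 and Nos3 were not in the table, so no other synthase was tested. In this list Nostrin, a protein that binds the endothelial synthase, rose with DHA in the 7-library fit (0.71, limma adjusted p = 0.0440). None of that list was called with cpdA, where the members furthest from 0 were Ddah1 (0.42) and Nostrin (0.31), and its medians were 0.02 and 0.08 with DHA and cpdA (0.05 and 0.06 over the 7 libraries).

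**Figure D2:**
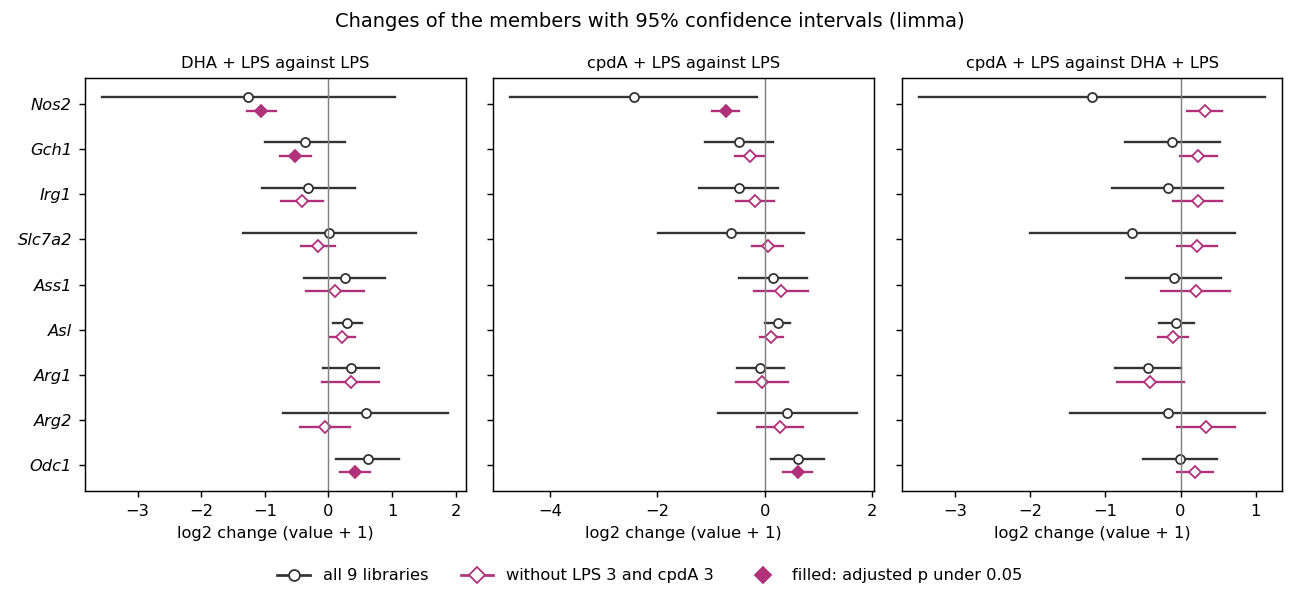
Log2 change (x axis, on normalized count + 1) of each gene in the 3 comparisons, with 95% confidence intervals from limma. Circles are fits to 9 libraries, diamonds fits without LPS 3 and cpdA 3, and filled diamonds are called: Nos2, Gch1 and Odc1 with DHA, and Nos2 and Odc1 with cpdA.

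Slc7a2 encodes CAT2, a transporter that brings arginine into the cell. Its normalized count was 55297 in LPS 1, 55556 in LPS 2 and 38281 in LPS 3, against 54745, 43132 and 51342 in DHA libraries 1 to 3 and 53851, 61248 and 9662 in cpdA libraries 1 to 3. The groups overlapped, cpdA 2 was the highest library, and cpdA 3 stood alone at the bottom. With DHA the change was 0.01 (SE 0.60, interval -1.35 to 1.38, limma adjusted p = 0.994). With cpdA it was -0.63 (SE 0.60, limma adjusted p = 0.662) over all libraries and 0.05 (SE 0.13, limma adjusted p = 0.941) without LPS 3 and cpdA 3, so its sign turned with those libraries. Counts per gene do not separate the forms of CAT2 made from this gene, which differ in their affinity for arginine. The group means of 49711 ± 9900 for LPS, 49739 ± 5970 for DHA and 41587 ± 27894 for cpdA (SD, n = 3) did not differ beyond their spread.

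Ass1 and Asl remake arginine from citrulline, in that order. Ass1, argininosuccinate synthase, had normalized counts of 900, 918 and 658 in LPS libraries 1 to 3, 1295, 752 and 946 in DHA libraries 1 to 3 and 1206, 1039.7 and 607 in cpdA libraries 1 to 3. Its groups overlapped, with LPS 3 and cpdA 3 the lowest libraries and DHA 1 and cpdA 1 the highest. The change was 0.25 (SE 0.28, limma adjusted p = 0.702) with DHA and 0.16 (SE 0.28, limma adjusted p = 0.829) with cpdA, and neither passed over the 7 libraries (0.10 and 0.30). Without DHA 1 and cpdA 1, the cpdA change turned to -0.04.

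Asl, argininosuccinate lyase, had normalized counts of 680.4, 736 and 607 in LPS libraries 1 to 3, 860.5, 866 and 753 in DHA libraries 1 to 3 and 778, 766 and 843 in cpdA libraries 1 to 3. All 6 treated libraries lay above all 3 LPS libraries, with DHA 3 (753) and LPS 2 (736) the closest. The spread within groups was small beside that of the other genes, except Arg1 in the LPS group (SD 3.8% of the mean, against 9.6% for Asl). In Asl cpdA 3 was the highest of its group. The change was 0.29 (SE 0.10, interval 0.07 to 0.52, limma adjusted p = 0.287) with DHA and 0.24 (SE 0.10, interval 0.01 to 0.47, limma adjusted p = 0.324) with cpdA. It was not called over the 7 libraries either, at 0.22 and 0.12 (limma adjusted p = 0.176 and 0.728). The mean with LPS was 675 ± 65, that with cpdA 796 ± 41.6 and that with DHA 827 ± 63.5 (SD, n = 3), and the latter pair did not differ beyond their spread.

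Of 6 kept genes of arginine transport and supply outside the set (9 listed), none was called in either comparison or fit, with medians of 0.09 with DHA and 0.09 with cpdA (0.07 and 0.001 over the 7 libraries). Slc7a1, the constitutive arginine transporter CAT1, changed by 0.56 (limma adjusted p = 0.3001) with DHA and 0.56 (limma adjusted p = 0.285) with cpdA without passing the test. Slc3a2, the heavy chain of several amino acid transporters, stood at 0.51 with DHA, and Slc7a3, at a mean of 14.5 with LPS, at -0.68 with cpdA.

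Arg1 and Arg2, the cytosolic and mitochondrial arginases, both had low counts. Arg1 had normalized counts of 118.5, 128 and 123 in LPS libraries 1 to 3, 123, 192 and 165 in DHA libraries 1 to 3 and 139.7, 101 and 110.5 in cpdA libraries 1 to 3. These stand for 55 reads in DHA 1, the shallowest library, to 170 in DHA 2. DHA 2 and DHA 3 were the highest of the 9 libraries, DHA 1 lay among the LPS libraries, and the groups overlapped. Neither LPS 3 nor cpdA 3 stood apart in Arg1. The change was 0.35 (SE 0.19, interval -0.09 to 0.79, limma adjusted p = 0.434) with DHA and -0.08 (SE 0.19, interval -0.52 to 0.35, limma adjusted p = 0.880) with cpdA. Over the 7 libraries the changes were 0.35 and -0.05, and neither passed. Without DHA 1 and cpdA 1 they were 0.53 (limma adjusted p = 0.321) and -0.22.

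Arg2 had normalized counts of 187, 184 and 48.1 in LPS libraries 1 to 3, 229.6 in DHA 1, 142 in DHA 2 and 175 in DHA 3, with 231, 221 and 77.9 in cpdA libraries 1 to 3. LPS 3 and cpdA 3 were the lowest libraries, at 47 and 86 reads, and the groups overlapped. The change was 0.59 (SE 0.57, limma adjusted p = 0.660) with DHA and 0.42 (SE 0.57, limma adjusted p = 0.773) with cpdA. Without LPS 3 alone these became -0.06 and -0.23, and in the 7-library fit they were -0.06 and 0.28, so the sign turned with the libraries left out. The group means, 139.8 ± 79.4 for LPS, 177 ± 85.7 for cpdA and 182 ± 44.2 for DHA (SD, n = 3), did not differ beyond their spread.

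Genes that accompany Arg1 in alternative activation, 14 kept of 15 listed, had medians of 0.10 with DHA and -0.17 with cpdA (-0.04 and -0.13 over the 7 libraries). The 7-library fit called 1 that rose with DHA, the scavenger receptor Cd163 (2.93, limma adjusted p = 0.0254), at means of only 4.13 with LPS and 13.1 with DHA, and 1 that fell, Il13ra1, a chain of the interleukin 13 receptor (-0.56, limma adjusted p = 0.00501). Over all genes that fit called 2.75% higher and 4.04% lower with DHA. None was called with cpdA, where the chemokine Ccl24 stood at -1.01 and Cd163 at 0.97.

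**Figure D3:**
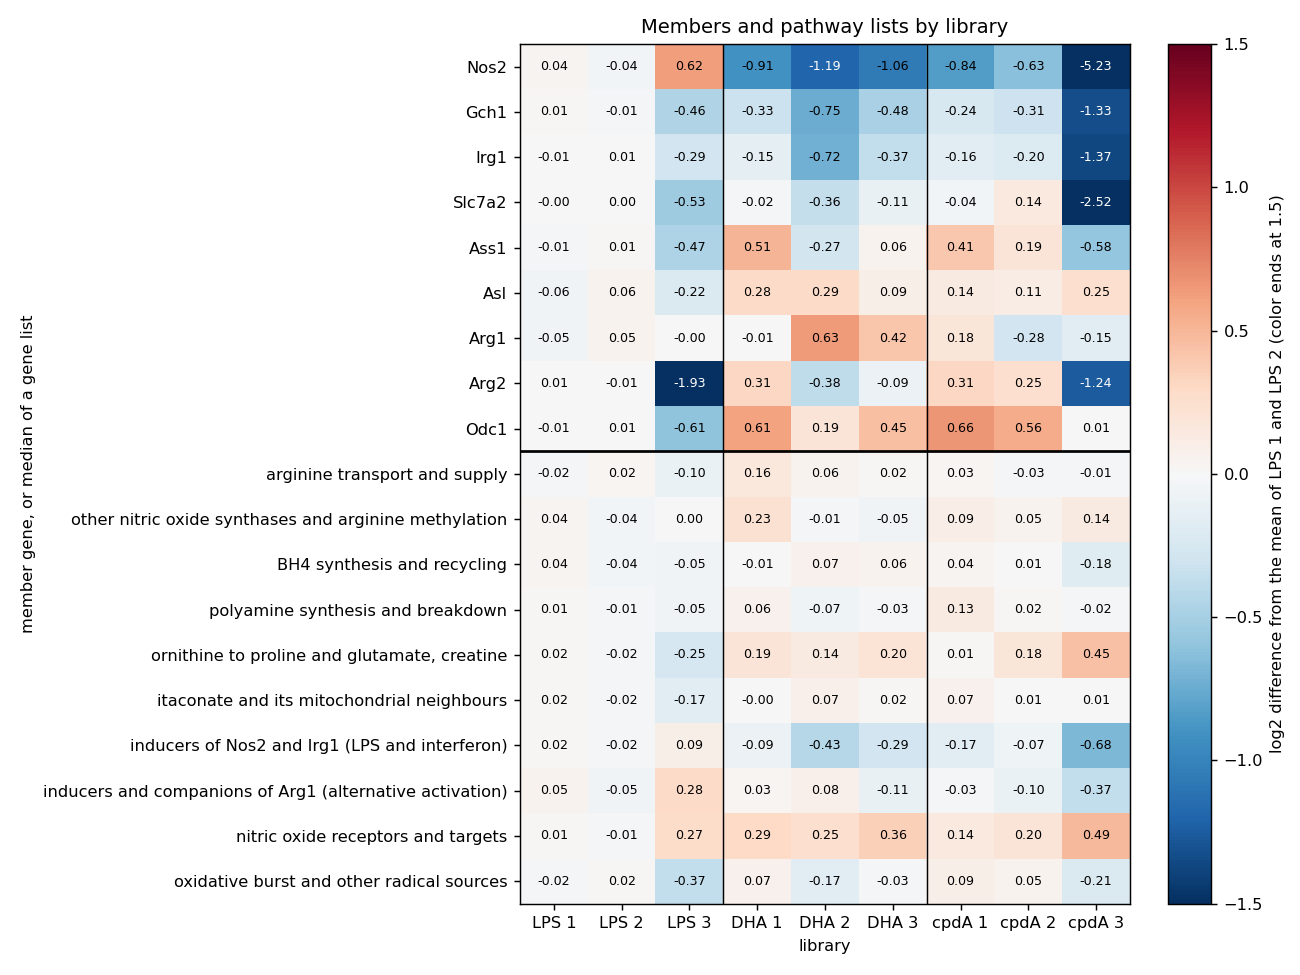
Log2 difference of each library (columns) from the mean of LPS 1 and LPS 2, for the 9 genes and, below the line, for the median gene of each pathway list; color ends at 1.5 and the number is printed in each cell. In cpdA 3, Nos2 lies at -5.23, Slc7a2 at -2.52, Irg1 at -1.37 and Gch1 at -1.33, while Odc1 lies at 0.01 and Asl at 0.25.

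Odc1 encodes ornithine decarboxylase, the first and rate-limiting enzyme of polyamine synthesis. Its normalized count was 2139 in LPS 1, 2161 in LPS 2 and 1412 in LPS 3, against 3277, 2460.4 and 2938 in DHA libraries 1 to 3 and 3397, 3174 and 2161 in cpdA libraries 1 to 3. All 6 treated libraries lay above all LPS libraries, though cpdA 3 (2161.3) passed LPS 2 (2160.7) by less than 1. LPS 3 was the lowest library of all and cpdA 3 the lowest treated one. The change was 0.62 (SE 0.22, interval 0.13 to 1.11, limma adjusted p = 0.293) with DHA and 0.61 (SE 0.22, interval 0.12 to 1.105, limma adjusted p = 0.265) with cpdA. Odc1 rose in the 7-library fit by 0.42 with DHA (SE 0.11, limma adjusted p = 0.0432) and by 0.61 with cpdA (SE 0.12, limma adjusted p = 0.0266). With the replicate block in that fit the DHA call was lost (adjusted p = 0.0799) and the cpdA call was not (adjusted p = 0.0348). The means of 2892 ± 410.2 for DHA and 2911 ± 659 for cpdA (SD, n = 3) did not differ beyond their spread. The mouse genome holds intronless copies of Odc1, so reads shared with them make its level uncertain.

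Among genes of polyamine synthesis and breakdown, 16 kept of 19 listed, the medians were 0.02 with DHA and 0.07 with cpdA (-0.06 and 0.06 over the 7 libraries). With DHA, 2 of the 16 rose in the 7-library fit, where 2.75% of all genes rose. They were the oxidase Paox (1.00, limma adjusted p = 0.0463) and the lysosomal polyamine exporter Atp13a2 (0.47, limma adjusted p = 0.0288). None rose with cpdA in that fit. Over all 9 libraries Paox (0.72, limma adjusted p = 0.393) and Atp13a2 (0.33, limma adjusted p = 0.637) were not called with DHA, and their groups overlapped. Srm, spermidine synthase, next in line after Odc1, stood at 0.46 with DHA and 0.68 with cpdA without a call, and Atp13a2 at 0.58 with cpdA. A further list held genes around ornithine, proline, glutamate and creatine, not all of which act on ornithine, with 11 kept of 11 listed. Its medians were 0.31 with DHA and 0.22 with cpdA over all libraries, but 0.08 and 0.11 over the 7. 1 gene of these rose in the 7-library fit: Aldh18a1, which makes the proline precursor from glutamate, with DHA (0.57, limma adjusted p = 0.0235) and with cpdA (0.69, limma adjusted p = 0.0334), where 2.75% and 0.712% of all genes rose. Over all 9 libraries Aldh18a1 was not called (0.33 with DHA and 0.71 with cpdA, limma adjusted p = 0.595 and 0.285). Its groups overlapped, as LPS 3 (435.9) lay above cpdA 1 (412.6), cpdA 2 (432.1), DHA 2 (340.5) and DHA 3 (390.6). P4ha1, a collagen prolyl hydroxylase, fell with DHA in the 7-library fit (-0.41, limma adjusted p = 0.0438).

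Irg1 had normalized counts of 167700, 169039 and 137691 in LPS libraries 1 to 3, 151806, 102447 and 130609.6 in DHA libraries 1 to 3 and 150309, 146293 and 65129.8 in cpdA libraries 1 to 3. LPS 1 and 2 were the highest libraries and cpdA 3 the lowest, and the groups overlapped because LPS 3 lay below DHA 1, cpdA 1 and cpdA 2. The change was -0.31 (SE 0.33, interval -1.05 to 0.42, limma adjusted p = 0.682) with DHA and -0.48 (SE 0.33, interval -1.22 to 0.25, limma adjusted p = 0.516) with cpdA. Over the 7 libraries the changes were -0.41 (SE 0.15, limma adjusted p = 0.127) and -0.18 (SE 0.16, limma adjusted p = 0.765), so Irg1 was not called in any of these fits. Its means were 158143 ± 17725 with LPS, 128287 ± 24761 with DHA and 120577 ± 48061 with cpdA (SD, n = 3), and neighbours in this order did not differ beyond their spread.

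Genes around itaconate in the mitochondria, 19 kept of 19 listed, had medians of 0.06 with DHA and 0.08 with cpdA (0.05 and 0.03 over the 7 libraries). With DHA, 1 of the 19 rose in the 7-library fit (2.75% of all genes), Idh2, the mitochondrial NADP isocitrate dehydrogenase (0.66, limma adjusted p = 0.0171). In that fit 2 fell (4.04% of all genes), the citrate carrier Slc25a1 (-0.45, limma adjusted p = 0.00543) and the citrate-cleaving enzyme Acly (-0.39, limma adjusted p = 0.0169). None of these was called over all 9 libraries, and the groups of Acly overlapped (-0.24, limma adjusted p = 0.529). With cpdA none was called, and Idh2 stood at 0.67 and Slc25a1 at -0.40 over all libraries.

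The list of genes known to induce Nos2 and Irg1 downstream of LPS and interferon, 18 kept of 18 listed, had 16 negative changes with DHA and 16 with cpdA, with medians of -0.22 and -0.34. Among all genes 50.2% of changes were negative with DHA and 50.6% with cpdA. The list was chosen with earlier results of these data known. Over all 9 libraries limma called none of them. In the 7-library fit 3 of the 18 fell with DHA, where 4.04% of all genes fell and the list's median was -0.27: Irf7 (-0.84, limma adjusted p = 0.00465), Irf8 (-0.42, limma adjusted p = 0.0311) and the adaptor Myd88 (-0.52, limma adjusted p = 0.0162). With cpdA none was called in that fit, where the median was -0.09, and Irf7 stood at -1.23 over all libraries. Ifnb1, the interferon beta gene, had normalized counts of 21.7, 35.7 and 65.5 in LPS libraries 1 to 3, 11.1, 9.0 and 8.9 in DHA libraries 1 to 3 and 10.6, 6.6 and 0 in cpdA libraries 1 to 3. Its groups did not overlap with LPS, and its changes of -1.84 with DHA and -3.10 with cpdA did not pass the test (limma adjusted p = 0.358 and 0.224). The latter value rests on the 0 in cpdA 3 and on the pseudocount, and over the 7 libraries the changes were -1.44 and -1.62. Like Nos2, it was highest in LPS 3 and lowest in cpdA 3.

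Among nitric oxide receptors and targets, 4 kept of 7 listed, none was called. The listed receptor genes Gucy1a3, Gucy1a2 and Gucy1b3 were not kept, so no receptor was tested. The medians were 0.20 with DHA and 0.18 with cpdA (0.32 and 0.09 over the 7 libraries). The members furthest from 0 were Cbr1 (0.30 and 0.38) and Adh5, which breaks down nitrosoglutathione (0.24 and 0.25). Of 11 genes of the oxidative burst and of antioxidant defence, all kept, the antioxidant enzyme catalase (Cat) rose in the 7-library fit. It rose both with DHA (0.68, limma adjusted p = 0.00182) and with cpdA (0.53, limma adjusted p = 0.0212), where 2.75% and 0.712% of all genes rose. The medians of that list were 0.05 and 0.10 over all libraries and -0.10 and 0.06 over the 7.

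**Figure D4:**
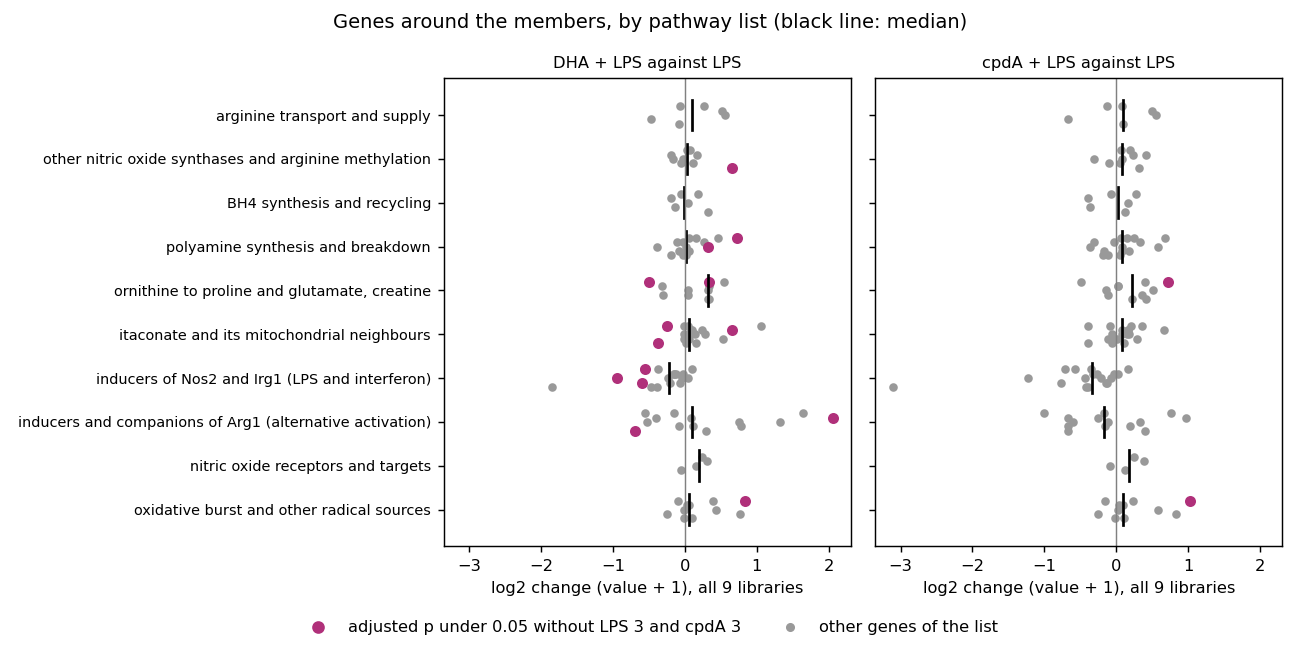
Log2 change (x axis, all 9 libraries) of each kept gene of 10 pathway lists around the 9 genes, with DHA on the left and cpdA on the right; the black line is the list's median. Colored points were called without LPS 3 and cpdA 3, and the list of inducers of Nos2 and Irg1 has its median at -0.22 and -0.34.

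The agents were compared directly at the doses used, which differ (100 µM DHA and 10 µM cpdA), so a difference or its lack does not speak to the agents at matched doses. None of the 9 genes was called between them by limma, edgeR or DESeq2, none passed at an unadjusted p of 0.05 in limma (1.02% of all genes did), and none had groups that did not overlap, against 5.65% of all genes (3.04% higher and 2.61% lower). By limma 0% of all genes were called. The intervals were wide for the genes that cpdA 3 pulls down: -1.18 (interval -3.48 to 1.123) for Nos2 and -0.64 (interval -2.003 to 0.72) for Slc7a2, as cpdA minus DHA. In the 7-library fit both turned, to 0.32 (interval 0.09 to 0.56) and 0.21 (interval -0.05 to 0.48), and neither was called. For Odc1 the difference was -0.01 (interval -0.50 to 0.49), for Asl -0.05 (interval -0.28 to 0.17) and for Arg1 -0.43 (interval -0.87 to 0.00), each with a limma adjusted p of 1.00. Over all 9 libraries all 9 differences were negative, with a median of -0.17 against -0.02 for all genes, and in the 7-library fit only 2 were, those of Arg1 and Asl.

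**Figure D5:**
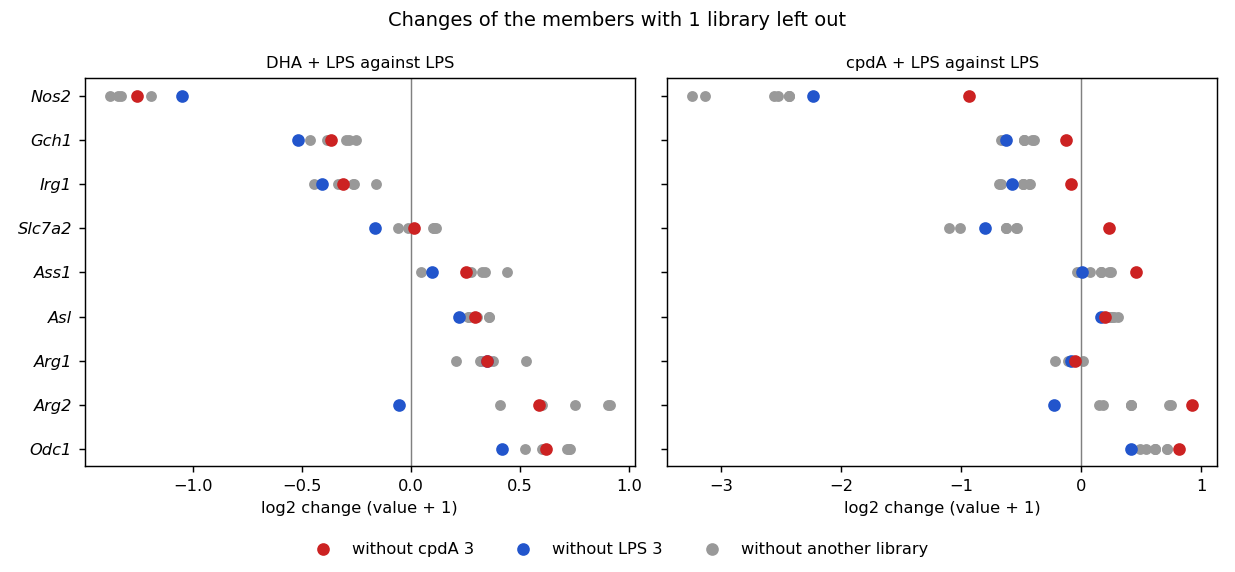
Log2 change (x axis) of each gene against LPS when 1 of the 9 libraries is left out, with DHA on the left and cpdA on the right; red points leave out cpdA 3 and blue points LPS 3. Nos2 stays below 0 and Odc1 and Asl above 0 throughout, while Arg2 crosses 0 when LPS 3 is left out and Slc7a2 crosses it with cpdA when cpdA 3 is left out.

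The 9 genes did not vary as 1 block over the libraries. Pearson correlations of log2 values, given as descriptions over libraries that share groups, depth and the distance of cpdA 3, were highest for Gch1 with Irg1, at 0.985 over 9 libraries and 0.967 over 7. Nos2 ran with Irg1 at 0.899 (0.804 over 7) and with Gch1 at 0.864 (0.915 over 7). Slc7a2 ran with Irg1 at 0.915 (0.825 over 7), with Gch1 at 0.884 (0.721 over 7) and with Nos2 at 0.88 (0.557 over 7). Arg2 ran with Ass1 at 0.873 (0.935 over 7) and with Odc1 at 0.849 (0.642 over 7). Asl went against Nos2, at -0.61 over 9 libraries and -0.80 over 7. Arg1 lay within 0.26 of 0 with every other gene of the set over 9 libraries. Over 7 it lay at -0.95 with Slc7a2, -0.79 with Irg1, -0.75 with Arg2, -0.71 with Gch1, -0.61 with Nos2 and -0.51 with Ass1. With Odc1 and Asl it lay at -0.12 and 0.42 over 7.

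Of the 11364 kept genes with a mean of at least 50, those most like Nos2 over the 9 libraries were Ccdc23 (Pearson 0.998, and 0.988 over 7 libraries), the collagenase Mmp13 (0.998 and 0.971), the activation marker Cd69 (0.996 and 0.971), LOC101055672 (0.996 and 0.971) and the costimulatory ligand Cd80 (0.995 and 0.918). Those most like Irg1 were Sh3bp5 (0.994 and 0.984), Slfn2 (0.994 and 0.990), the Fc receptor chain Fcer1g (0.993 and 0.980), Arhgef3 (0.992 and 0.982) and the proteasome subunit Psma5 (0.992 and 0.985). For Arg1 the nearest were Rrm1, a subunit of ribonucleotide reductase (0.911 and 0.922), Sulf2 (0.882 and 0.889), Cd22 (0.874 and 0.886), Zranb3 (0.872 and 0.877) and the condensin subunit Ncapg2 (0.866 and 0.853), a looser likeness than for Nos2 or Irg1.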

How the data were processed

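RNA was measured in 9 libraries, with groups read from the titles. Each value of the deposited table is a normalized count (unit: signal), made by the authors with CASAVA 1.8.2, Bowtie2, DESeq and the genome build mm9, per the submitters' processing notes. The sources used here do not give the counting program, annotation, library kit or strandedness, and the labels' growth and extraction text was set aside because it concerns other assays. In each library 99.77% to 99.99% of the values were whole multiples, within 0.05 of a normalized count, of the worth of 1 read, and reads were recovered from them.

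A gene was kept when 3 or more libraries reached a value of 10. Log2(value + 1), a scale that understates changes of low genes, was fitted in limma 3.58.1 (R 4.3.3, statmod 1.5.0) with a mean per group, all 9 libraries and moderation with trend and robust options, and p-values were adjusted by Benjamini-Hochberg over the 13895 genes. Alternatives were DESeq2 1.42.0 and the quasi-likelihood test of edgeR 4.0.16, both on recovered reads, pseudocounts of 0.5 and 8, other filters and scalings, a replicate block, only the libraries compared and each library left out. Fits without LPS 3 and cpdA 3, with and without the block, and without DHA 1 and cpdA 1 were chosen after seeing the data. DESeq2 gave an adjusted p for 13616 genes with DHA, 12000 with cpdA and 13886 for cpdA against DHA. The scripts were tested on simulated data.

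The 9 genes, the lists and the rule for named genes (all 9, list genes called in the 9- or 7-library fit, and otherwise the 2 furthest from 0; the 5 genes most correlated with Nos2, Arg1 and Irg1) were chosen with earlier results of these data known. A list gene that this rule would name is not reported here. Reads shared between genes and their near-identical copies or antisense partners cannot be told apart.

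What the replicate numbers stand for is unlabelled. Across genes, same-number libraries of LPS and cpdA had deviations from their group means that correlated at 0.387, 0.234 and 0.437, and these were taken as paired by the rule of over 0.1 in every pair. Pairs of other numbers reached 0.292 and 0.264, and since LPS 3 and cpdA 3 both stand apart the 3 pairs are not separate evidence. For DHA with LPS (0.14, -0.0654 and 0.0199) and cpdA with DHA (0.407, -0.345 and 0.013) the rule was not met. All SEs and intervals given above come from fits without a replicate block, so they are not paired. With the block, which spans all groups, genes called between cpdA and LPS went from 1 to 0, and no call among the 9 genes changed over 9 libraries.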

Additional observations from a re-analysis of the deposited data

How the results depend on the processing

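From limma over 9 libraries, the number of genes called against LPS moved most with the libraries left out and with DESeq2. With cpdA, leaving out 1 library moved it less than DESeq2 did. With DHA, 1 gene of 13895 was called. That count was 3 with a filter of 50, 3 with TMM, 3 with edgeR, 0 without trend and robust options, 315 with DESeq2, 0 with the replicate block, 9 with only the 6 libraries compared, 0 to 373 with each library left out, 943 without LPS 3 and cpdA 3 (549 with the block) and 0 without DHA 1 and cpdA 1. With cpdA it was 1, and 0 without trend and robust options, 391 with DESeq2, 0 with the block, 0 with only 6 libraries, 0 to 3 with each left out, 222 without LPS 3 and cpdA 3 (171 with the block) and 0 without DHA 1 and cpdA 1. Between cpdA and DHA it was 0 in each. The causes were not tested. The other planned settings left the direction and call of all 9 genes as they were in both comparisons with LPS, and turned only Odc1 between cpdA and DHA (0.0094 with edgeR, 0.0083 with DESeq2). Without LPS 3 and cpdA 3 (and with the block), the changes that turned were, for cpdA against DHA, Nos2 0.32 (0.32), Arg2 0.34 (0.32), Ass1 0.20 (0.18), Slc7a2 0.21 (0.24), Gch1 0.24 (0.26), Irg1 0.23 (0.25) and Odc1 0.19 (0.21), for DHA, Arg2 -0.055 (-0.039) and Slc7a2 -0.16 (-0.19), and for cpdA, Slc7a2 0.051 (0.051). Without DHA 1 and cpdA 1, Slc7a2 turned to -0.058 with DHA and Ass1 to -0.039 with cpdA. With each library left out, the changes that crossed 0 ranged, with DHA, over -0.055 to 0.91 (Arg2) and -0.16 to 0.11 (Slc7a2). With cpdA they ranged over -0.22 to 0.014 (Arg1), -0.23 to 0.92 (Arg2), -0.039 to 0.46 (Ass1) and -1.10 to 0.23 (Slc7a2). For cpdA against DHA they ranged over -1.98 to 0.32 (Nos2), -0.44 to 0.34 (Arg2), -0.29 to 0.20 (Ass1), -1.12 to 0.21 (Slc7a2), -0.31 to 0.24 (Gch1), -0.38 to 0.23 (Irg1) and -0.13 to 0.19 (Odc1). Low counts limit Arg1 and Arg2, which had as few as 55 reads (Arg1, DHA 1) and 47 reads (Arg2, LPS 3) in a library.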
